A study of Mus musculus with 8 samples.

Results

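The ATF4 integrated stress response genes are 10 genes that sit in or under one stress pathway: Atf4, Atf3, Ddit3, Asns, Psat1, Phgdh, Sesn2, Chac1, Trib3 and Ppp1r15a. They were chosen by name, with earlier results of these data known. Each was read from a probe set that the array annotation assigns to that symbol alone, so that all 10 were measured among 19938 genes in all. The samples were 4 arrays of macrophages cultured with acLDL (acetylated low-density lipoprotein, a chemically altered lipoprotein that enters macrophages by scavenger receptors) and 4 arrays of the same kind of cells cultured without it, called unloaded. All cells were thioglycollate-elicited peritoneal macrophages of C57BL/6J mice, collected 5 days after the injection and kept in DMEM with 10% FBS. The labels used here name neither sex nor age nor which mice went into which culture, although the design text calls the 4 replicates of a condition independent. The dose and time are not settled, because the protocols of the samples state 20 µg/mL for 3 days, while 50 µg/mL for 2 days is stated in the design text.

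In the integrated stress response, kinases that sense a lack of amino acids, unfolded protein, heme shortage or double-stranded RNA phosphorylate the translation initiation factor eIF2. General protein synthesis then falls while the mRNA of Atf4, which carries upstream reading frames, is translated more. ATF4 is a transcription factor that turns on genes for making, importing and loading amino acids, together with genes that feed back on the response. Macrophages overloaded with free cholesterol in the endoplasmic reticulum are a known setting of this response and of CHOP, the product of Ddit3. The arrays measured RNA only, so neither eIF2 phosphorylation nor ATF4 protein was observed.

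With acLDL, 4 of the 10 genes rose, 1 fell and 5 did not pass the test. The 4 that rose were Asns (2.22-fold), Sesn2 (1.53-fold), Psat1 (1.42-fold) and Trib3 (1.38-fold), which act downstream of ATF4. Ppp1r15a, a feedback gene like Trib3, did not pass. Phgdh, of serine synthesis like Psat1, did not pass by its own probe set. A probe set that Phgdh shares with the pseudogene Gm6756 rose by 0.54 (log2), so its change is not settled. The gene that fell was Atf3 (1.14-fold lower), a transcription factor, and Atf4 itself had a log2 difference of -0.15 that did not pass. The test was limma across all 19938 genes with Benjamini-Hochberg adjustment and a threshold of 0.05. It called 23.3% of all genes, 12.9% higher and 10.5% lower. At a change of at least 1.5-fold, 2 of the 10 rose, against 1.33% of all genes. The groups did not overlap in 5 of the 10 genes, the same ones that passed, against 25.6% of all genes. The median log2 difference was 0.20 over the 10 genes and -0.003 over all genes. The 10 genes were chosen with earlier results of these data known, so these contrasts with all genes do not measure an enrichment.

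**Figure D1:**
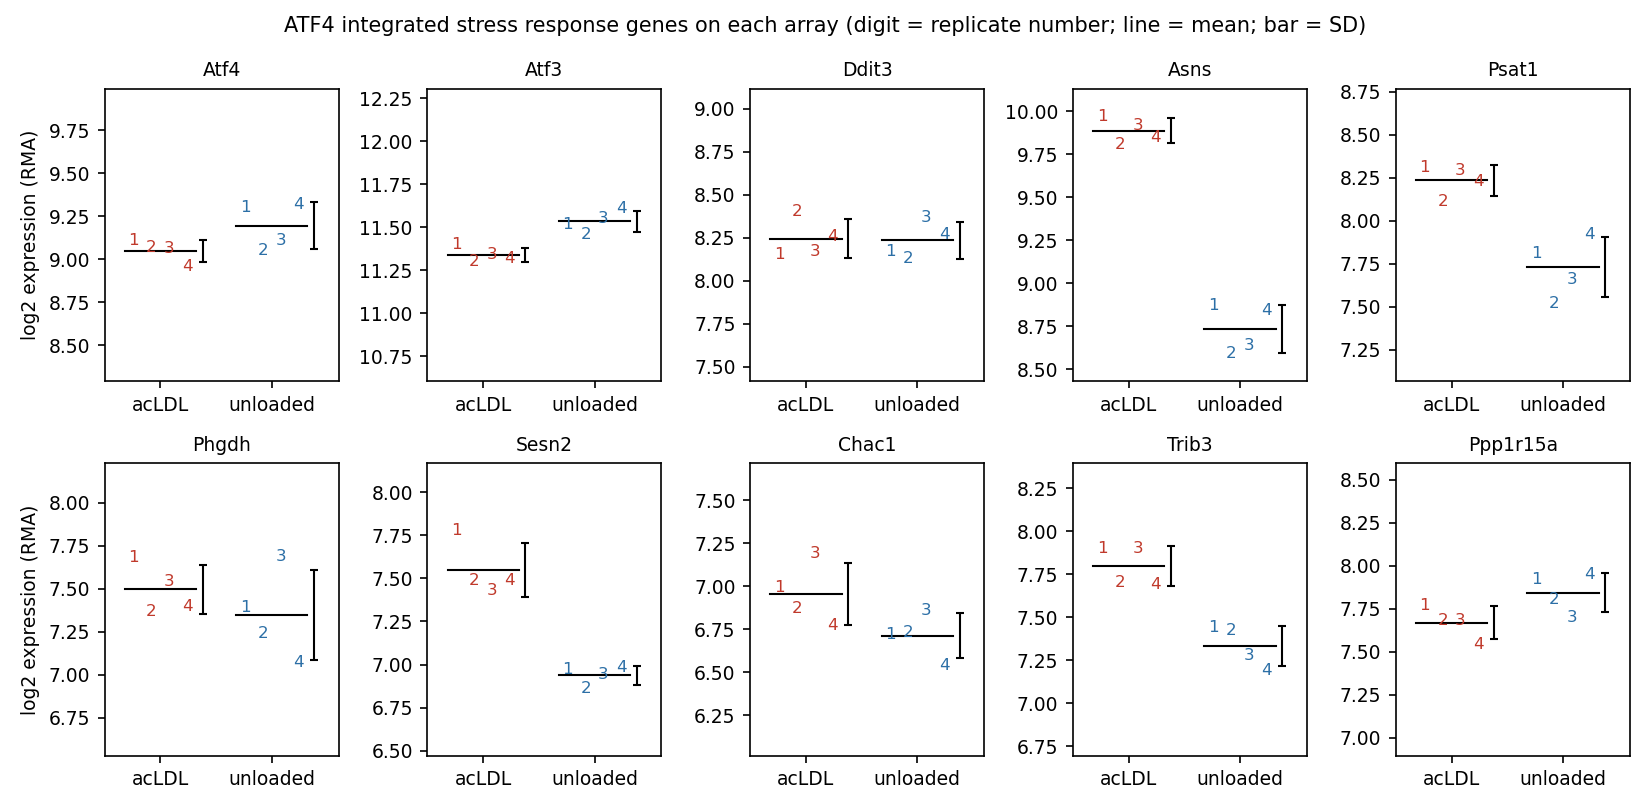
Log2 expression of the 10 genes on each array, acLDL in red on the left and unloaded in blue on the right, with the digit giving the replicate number, the line the mean and the bar the SD (n = 4). The vertical axes differ in position but span the same range, and the acLDL arrays lie wholly above the unloaded ones for Asns, Psat1, Sesn2 and Trib3 and wholly below them for Atf3.

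The promoters of the 10 genes are shown where they hold a short element of the kind ATF4 binds with a C/EBP partner. RefSeq windows of 250 bases before the gene start (assembly GRCm38.p6) were searched on both strands for TGATGNAA. It was found in 3 of the 10 genes, Asns, Chac1 and Atf3, and in 3.53% of 27025 genes with such a window. A second pattern, TGGTGCAA, was chosen after the letters of the Trib3 and Psat1 windows had been read. It was found in those 2 genes and in 0.5% of genes, and its matches do not overlap with those of the first pattern. Capitals mark the matched letters, which are those of the reverse strand's pattern in Chac1 and Atf3, and each sequence runs 5′ to 3′ along the gene's own strand.
Asns (chr6:7693210-7693268, minus strand, match at -23 to -16): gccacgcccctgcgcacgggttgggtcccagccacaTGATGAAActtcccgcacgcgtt
Chac1 (chr2:119351013-119351092, plus strand, match at -193 to -186): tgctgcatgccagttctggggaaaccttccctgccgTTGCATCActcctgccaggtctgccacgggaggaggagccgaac
Atf3 (chr1:191183400-191183479, minus strand, match at -110 to -103): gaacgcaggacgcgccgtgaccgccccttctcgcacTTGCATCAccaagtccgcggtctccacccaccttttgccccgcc
Trib3 (chr2:152344061-152344129, minus strand, match at -33 to -26): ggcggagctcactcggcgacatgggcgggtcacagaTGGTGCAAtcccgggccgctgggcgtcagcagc
Psat1 (chr19:15925152-15925231, minus strand, match at -136 to -129): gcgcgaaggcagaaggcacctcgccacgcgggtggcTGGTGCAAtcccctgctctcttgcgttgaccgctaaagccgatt
The 3 genes with the first pattern had different results, since Asns rose, Atf3 fell and Chac1 did not pass. The second pattern was picked from genes known to have risen, so nothing is read from their direction or from its share. A match describes these letters only and does not show that a factor binds there.

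Asns encodes asparagine synthetase, which makes asparagine from aspartate and glutamine and is a long-known target of ATF4. Its log2 level was 9.97, 9.81, 9.92 and 9.85 on acLDL arrays 1 to 4, against 8.87, 8.59, 8.64 and 8.84 on unloaded arrays 1 to 4. The lowest acLDL array stood above the highest unloaded array by several times the spread within either group. The log2 difference was 1.15 ± 0.08 (SE; 95% confidence interval 0.99 to 1.31; limma adjusted p = 3.27e-07), higher in 4 of 4 acLDL arrays, the largest of the 10 genes. The interval does not reach the differences of the other 9 genes.

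Psat1 encodes phosphoserine aminotransferase, the second enzyme in the route from a glycolytic intermediate to serine. It had log2 levels of 8.31, 8.11, 8.29 and 8.23 with acLDL, against 7.81, 7.52, 7.66 and 7.92 in unloaded cells. The groups did not overlap, and the gap between the lowest acLDL and the highest unloaded array was smaller than the range of the unloaded arrays. Psat1 rose by 0.51 ± 0.09 (log2, SE; 95% confidence interval 0.33 to 0.69; limma adjusted p = 0.000716).

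Phgdh encodes phosphoglycerate dehydrogenase, the first and committing enzyme of that serine route, and its probe sets disagreed. The probe set assigned to Phgdh alone read 7.68, 7.37, 7.54 and 7.40 with acLDL, against 7.39, 7.24, 7.69 and 7.07 in unloaded cells. These groups overlapped, the highest of the 8 values being unloaded array 3, and the log2 difference of 0.15 ± 0.11 (SE; 95% confidence interval -0.09 to 0.39; limma adjusted p = 0.387) did not pass. A second probe set, which the annotation shares between Phgdh and the transcribed pseudogene Gm6756, read 8.34, 8.33, 8.36 and 8.34 with acLDL, against 7.65, 7.96, 8.02 and 7.58 in unloaded cells. Here the groups did not overlap and the acLDL arrays lay within a few hundredths of each other. This shared probe set rose by 0.54 ± 0.09 (log2, SE; 95% confidence interval 0.34 to 0.74; limma adjusted p = 0.001 over 23410 annotated probe sets). The probe set of Gm6756 alone read 6.27 ± 0.11 with acLDL and 6.29 ± 0.12 in unloaded cells (log2, SD, n = 4), a difference of -0.02 (95% confidence interval -0.19 to 0.15). Whether Phgdh RNA changed is therefore not settled by these arrays, and with the shared probe set 6 of the 10 genes would have passed. Psph, the phosphatase that ends the serine route, did not pass, at a log2 difference of 0.17 ± 0.08 (SE; limma adjusted p = 0.149).

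**Figure D2:**
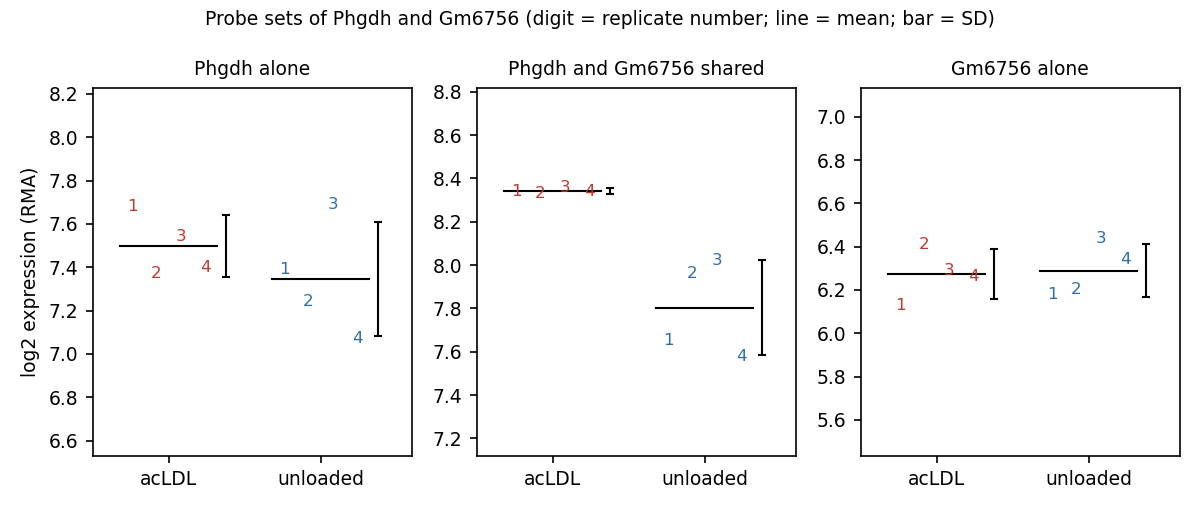
Log2 expression of the probe sets of Phgdh alone, of Phgdh and Gm6756 shared, and of Gm6756 alone, acLDL (red) left of unloaded (blue), with the digit giving the replicate number, the line the mean and the bar the SD (n = 4). The groups separate in the shared probe set, with means of 8.34 and 7.80, and overlap in the other 2.

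Sesn2 encodes sestrin 2, a leucine-binding protein that restrains the growth kinase complex mTORC1 when amino acids run short. Its log2 level was 7.78, 7.49, 7.43 and 7.49 with acLDL, against 6.97, 6.86, 6.94 and 6.98 in unloaded cells. The unloaded arrays were close together, and acLDL array 1 stood above the other acLDL arrays. Sesn2 rose by 0.61 ± 0.08 (log2, SE; 95% confidence interval 0.45 to 0.78; limma adjusted p = 8.67e-05). Its paralogues did not pass: Sesn1 differed by -0.23 ± 0.09 (log2, SE; limma adjusted p = 0.0653) and Sesn3 by 0.16 ± 0.07 (log2, SE; limma adjusted p = 0.124).

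Chac1 encodes a gamma-glutamylcyclotransferase that breaks down glutathione. It read 6.99, 6.87, 7.19 and 6.77 with acLDL, against 6.72, 6.73, 6.86 and 6.54 in unloaded cells. The groups overlapped at acLDL array 4, although the acLDL arrays each exceeded the unloaded mean of 6.71. The log2 difference of 0.24 ± 0.09 (SE; 95% confidence interval 0.05 to 0.44) did not pass after adjustment over all genes (limma adjusted p = 0.0721). It passed without acLDL array 4 (0.30, adjusted p = 0.0385) and without unloaded array 3 (0.29, 0.0416). It also passed in limma with a block for the replicate number (0.24, adjusted p = 0.0166), although whether equal numbers pair the arrays is not settled. Of 20 alternative fits, Chac1 passed in 6. Its paralogue Chac2, a dim gene with the same activity, was lower at 5.42 ± 0.13 with acLDL against 5.65 ± 0.09 in unloaded cells (log2, SD, n = 4; limma adjusted p = 0.0362), a call lost when acLDL array 1 or 4 or unloaded array 1 or 4 was left out (adjusted p from 0.0807 to 0.118).

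Of the 2 feedback genes, Trib3 passed and Ppp1r15a did not. Trib3 encodes a pseudokinase that binds ATF4 and holds back its activity. It read 7.90, 7.70, 7.90 and 7.69 with acLDL, against 7.44, 7.42, 7.28 and 7.19 in unloaded cells, with no overlap. Trib3 rose by 0.47 ± 0.08 (log2, SE; 95% confidence interval 0.30 to 0.64; limma adjusted p = 0.000726). Its paralogues Trib1 and Trib2 had log2 differences of 0.15 and -0.05 and did not pass.

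Ppp1r15a encodes GADD34, which brings a phosphatase to eIF2 and so ends the response. Its log2 level was 7.77, 7.68, 7.68 and 7.54 with acLDL, against 7.92, 7.80, 7.70 and 7.95 in unloaded cells. Most acLDL arrays lay below the unloaded ones, with an overlap at acLDL array 1. The log2 difference of -0.18 ± 0.07 (SE; 95% confidence interval -0.34 to -0.02; limma adjusted p = 0.108) did not pass. Of 20 alternative fits it passed in 4, among them without unloaded array 3 (-0.22, limma adjusted p = 0.0468) and after repeated quantile normalization (-0.22, 0.0268). Ppp1r15b, which encodes the constitutive counterpart of GADD34, had a log2 difference of -0.12 ± 0.06 (SE; limma adjusted p = 0.197).

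None of the 3 transcription factors passed as higher. Atf4 read 9.11, 9.07, 9.06 and 8.96 with acLDL, against 9.30, 9.05, 9.11 and 9.32 in unloaded cells. Unloaded arrays 1 and 4 lay above every acLDL array, while unloaded arrays 2 and 3 lay among them. The log2 difference was -0.15 ± 0.07 (SE; 95% confidence interval -0.31 to 0.01; limma adjusted p = 0.183). Ddit3, which encodes CHOP, a factor tied to cell death under prolonged stress, read 8.15, 8.40, 8.17 and 8.26 with acLDL, against 8.17, 8.13, 8.37 and 8.27 in unloaded cells. Those ranges nearly coincide, and the log2 difference was 0.01 ± 0.08 (SE; 95% confidence interval -0.15 to 0.17; limma adjusted p = 0.929).

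Atf3 encodes a factor that is induced by ATF4 and also, independently of it, by inflammatory signals in macrophages. It read 11.40, 11.30, 11.34 and 11.32 with acLDL, against 11.52, 11.46, 11.55 and 11.61 in unloaded cells. The groups did not overlap, and Atf3 fell by 0.19 on the log2 scale (SE 0.06; 95% confidence interval -0.32 to -0.06; limma adjusted p = 0.033). This call was lost when acLDL array 2, 3 or 4 or unloaded array 3 or 4 was left out, with adjusted p from 0.0578 to 0.0949, and after centring arrays on all deposited probe sets (0.143).

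**Figure D3:**
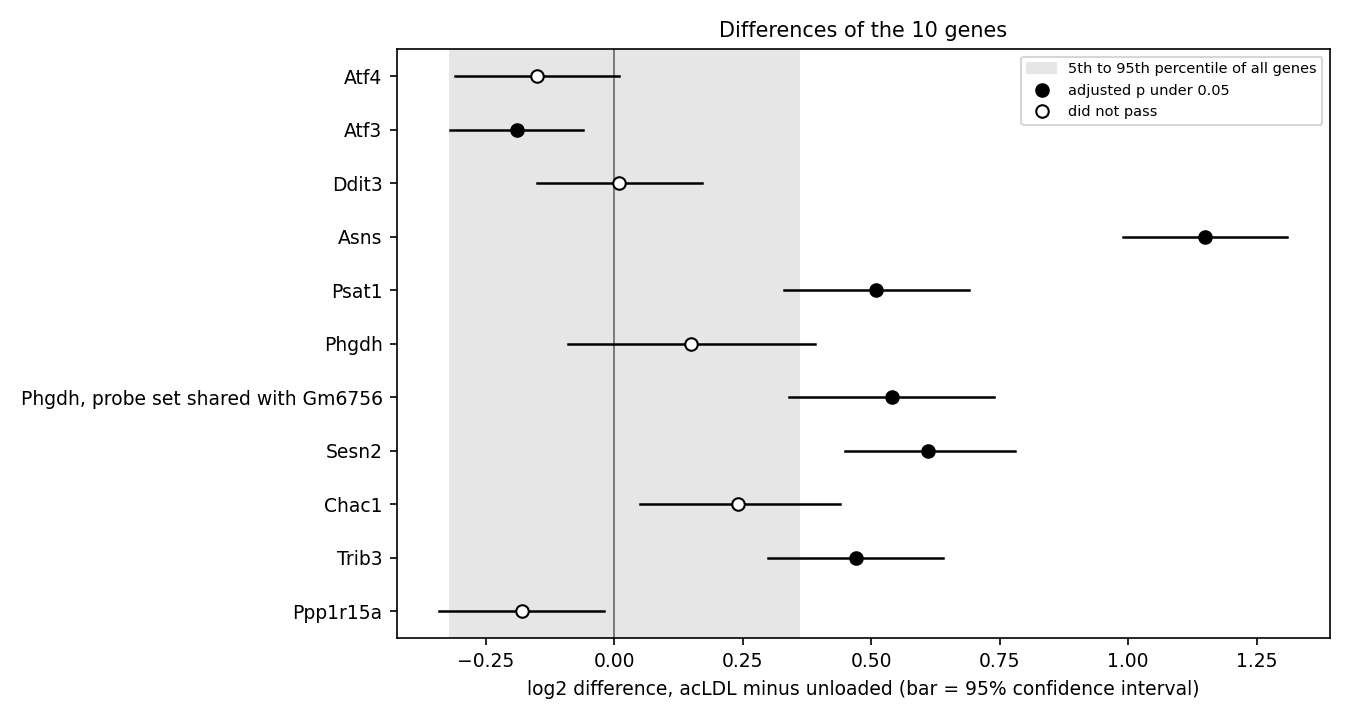
Log2 difference, acLDL minus unloaded, of the 10 genes and of the probe set shared by Phgdh and Gm6756, with 95% confidence intervals and filled points for an adjusted p under 0.05. Asns stands apart at 1.15, and Atf3, Ppp1r15a and Atf4 are on the negative side, inside the grey band from -0.32 to 0.36 that holds the middle of all 19938 genes.

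The unloaded arrays were not uniform, either in these genes or over all genes. The median log2 level of all genes was 6.435 and 6.447 on unloaded arrays 1 and 4, against 6.521 and 6.542 on arrays 2 and 3. In Atf4, Asns, Sesn2, Ppp1r15a and Psat1 both unloaded arrays 1 and 4 lay above arrays 2 and 3, by 0.23, 0.24, 0.08, 0.19 and 0.28 on average (log2), and in Chac1 both lay below, with a mean difference of -0.17. These pairs follow no label and were picked from the values, so leaving either out must move a gene in which they differ. Without unloaded arrays 1 and 4, the difference of Atf4 was -0.03 (limma adjusted p = 0.793), that of Ppp1r15a -0.08 (0.481) and that of Atf3 -0.16 (0.109). Without unloaded arrays 2 and 3 instead, those differences were -0.26 (0.0197), -0.27 (0.028) and -0.23 (0.0343). Of the 10 genes 8 then passed, Chac1 among them (0.33, adjusted p = 0.049), against 4669 of all 19938 genes. Without arrays 1 and 4, 4 of the 10 passed, against 4567 of all genes. Asns, Sesn2, Psat1 and Trib3 passed in both settings. Their differences were 1.27, 0.65, 0.65 and 0.45 without arrays 1 and 4, and 1.03, 0.57, 0.37 and 0.48 without arrays 2 and 3. The balance over all genes moved as well. At 1.5-fold or more, 394 genes were called higher and 118 lower without unloaded arrays 1 and 4. Without arrays 2 and 3 these counts were 199 and 231, and with all unloaded arrays 266 and 139. The cause of the split was not tested.

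**Figure D4:**
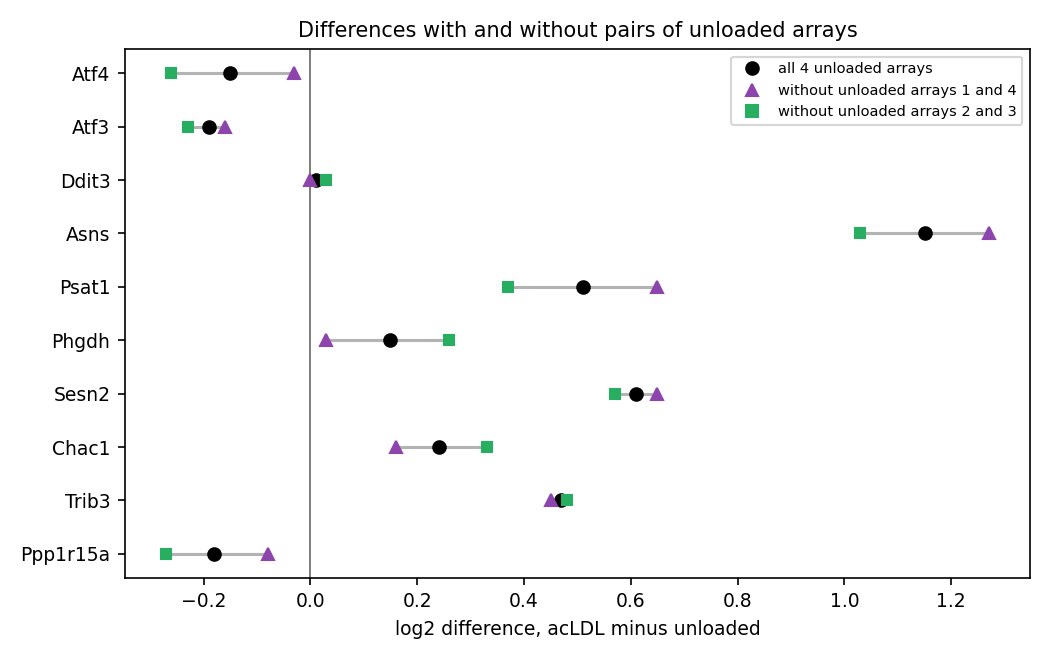
Log2 difference, acLDL minus unloaded, of the 10 genes with all 4 unloaded arrays (circles), without arrays 1 and 4 (triangles) and without arrays 2 and 3 (squares). Asns, Sesn2, Psat1 and Trib3 stay well to the right of 0, while Atf4 moves between -0.03 and -0.26.

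The genes whose values over the 8 arrays ran closest to those of Asns were sought over all genes, by the root mean square difference of mean-centred log2 values. They were Plau, the urokinase gene (0.075), Cox6b1, of cytochrome oxidase (0.089), and Rpl36, of the large ribosomal subunit (0.091). Among the other 9 genes Sesn2 (0.287), Psat1 (0.326) and Trib3 (0.366) were closest and Atf3 (0.677) the farthest. Among all genes, Sesn2, Psat1 and Trib3 stood at ranks 218, 357 and 568. The values were not scaled, so this measure largely follows the log2 differences already given and does not show shared regulation.

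Upstream of ATF4, the genes of the eIF2 kinases did not pass. HRI (Eif2ak1), PKR (Eif2ak2), PERK (Eif2ak3) and GCN2 (Eif2ak4) had log2 differences of -0.06, 0.05, -0.09 and -0.00, with adjusted p from 0.375 to 0.972 in limma. Of 16 measured genes of eIF2 and its control, the kinases included, 2 rose, 1 fell and 13 did not pass, with a median log2 difference of -0.02. Among all genes 12.9% were called higher and 10.5% lower, so part of each count here and in the lists below would be found in any list. Whether a list differs from these shares was not tested. Gcn1, which activates GCN2, rose by 0.22 and Eif2b3, of the exchange factor that phosphorylated eIF2 blocks, by 0.38. Impact, whose product holds GCN2 back, fell by 0.51 ± 0.06 (log2, SE; limma adjusted p = 5.39e-05).

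Relatives and partners of ATF4 moved both ways. Of 20 measured genes in this list 6 rose, 3 fell and 11 did not pass (median 0.11). Cebpb, whose product pairs with ATF4, was 9.92 ± 0.19 with acLDL and 9.42 ± 0.12 in unloaded cells, and Atf5, a target translated like Atf4, was 8.64 ± 0.12 with acLDL and 8.18 ± 0.09 in unloaded cells (log2, SD, n = 4). They rose by 0.51 and 0.46, and Fos, Atf6b and Jdp2 by 0.60, 0.53 and 0.52. Cebpg, another partner of ATF4, fell by 0.24 (limma adjusted p = 0.0305), a call lost without unloaded array 4 (0.0862) and without each acLDL array (0.0565 to 0.0811).

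Among 29 other measured genes reported as ATF4 targets 10 rose, 3 fell and 16 did not pass, with a median of 0.05. Of those that rose, Atf5, Cebpb, Jdp2, Mthfd2, Gpt2, Slc7a5 and Herpud1 also count in other lists here, so the list counts are not separate. Mthfd2, a mitochondrial enzyme of folate metabolism, was 8.97, 9.03, 8.89 and 8.92 with acLDL, against 8.23, 7.97, 7.72 and 7.89 in unloaded cells. It was 2.00-fold higher (limma adjusted p = 6.37e-06), the largest rise of that list. Gpt2, a mitochondrial alanine aminotransferase, was 1.55-fold higher, Pck2, the mitochondrial phosphoenolpyruvate carboxykinase, 1.42-fold, and Eif4ebp1, which restrains cap-dependent translation, 1.38-fold. Klhl24 was lower, at 9.48 ± 0.07 with acLDL and 10.32 ± 0.03 in unloaded cells (log2, SD, n = 4).

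In the list of enzymes of serine, glycine, one-carbon, proline and glutamate metabolism, 12 of 24 measured genes rose, 4 fell and 8 did not pass, with a median of 0.22. Beside Mthfd2, already described, the mitochondrial serine hydroxymethyltransferase Shmt2 was 1.58-fold higher, and Pycrl, of proline synthesis, 1.40-fold. Of 18 measured cytosolic aminoacyl-tRNA synthetases, which load amino acids onto tRNA, 7 rose, 1 fell and 10 did not pass (median 0.14). Vars, Mars1, Gars and Yars, for valine, methionine, glycine and tyrosine, rose by 0.55, 0.43, 0.33 and 0.32 on the log2 scale. The count of changed synthetases was 5 without acLDL array 2 and also 5 without acLDL array 4.

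Amino acid transporters were mixed. Of 19 measured genes 5 rose, 3 fell and 11 did not pass (median 0.01). Slc7a1, for cationic amino acids, Slc7a5, for large neutral ones, and Slc7a8 rose by 0.54, 0.47 and 0.44, and Slc38a2, which is known to respond to amino acid lack, fell by 0.40 on the log2 scale. Slc7a11, the cystine carrier and a well-known ATF4 target, had a log2 difference of -0.20 and its partner chain Slc3a2 one of 0.15, and neither passed (limma adjusted p = 0.126 and 0.0831).

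**Figure D5:**
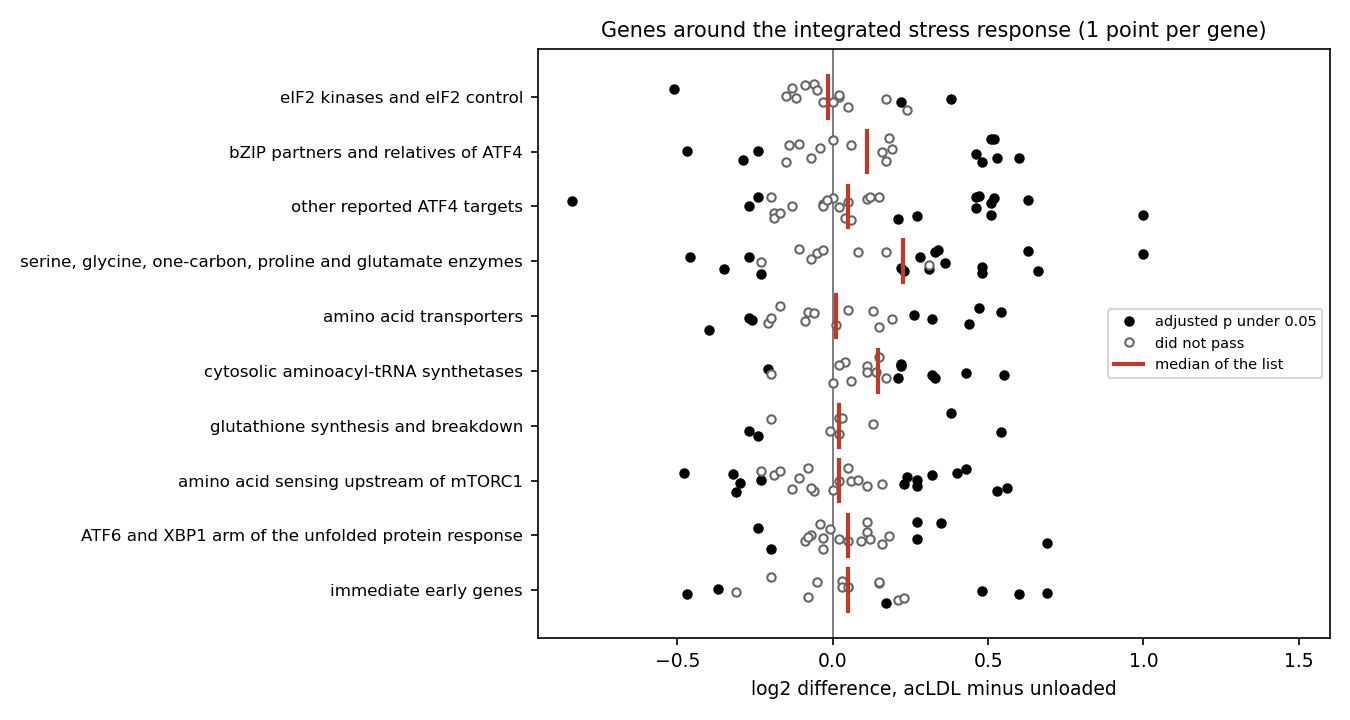
Log2 differences, acLDL minus unloaded, of the genes in 10 lists around the integrated stress response, 1 point per gene, filled where the adjusted p was under 0.05, with a red bar at each list's median. The list of serine, glycine, one-carbon, proline and glutamate enzymes has the highest median, 0.22, and the eIF2 list the lowest, -0.02.

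Lists next to single members were mixed as well. Beside Chac1, 2 of 10 measured genes of glutathione synthesis and breakdown rose, 2 fell and 6 did not pass (median 0.02). Gclm, of glutathione synthesis, and Gsr, which reduces it, rose by 0.54 and 0.38 on the log2 scale. Ggt5, a dim gene, fell by 0.27, a call lost when unloaded array 2 or 3 or acLDL array 1, 3 or 4 was left out (adjusted p from 0.0735 to 0.139). Beside Sesn2, 9 of 29 measured genes of amino acid sensing upstream of mTORC1 rose, 5 fell and 15 did not pass (median 0.02). Lamtor1 and Lamtor2, subunits of the complex that anchors mTORC1 regulators at lysosomes, rose by 0.56 and 0.53, Castor2, of a family of arginine sensors, by 0.43, and Mios, of the GATOR2 complex that sestrins bind, fell by 0.48 on the log2 scale.

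Of 21 measured genes of the ATF6 and XBP1 arm of the unfolded protein response, which responds to unfolded protein beside PERK, 4 rose, 2 fell and 15 did not pass (median 0.05). Among all genes 12.9% rose and 10.5% fell. Sdf2l1, of the endoplasmic reticulum, rose by 0.69, Creld2 by 0.35 and Manf, a secreted endoplasmic reticulum protein, and Herpud1, of protein degradation there, by 0.27 each on the log2 scale, whereas Hspa5, the chaperone BiP, fell by 0.20 (limma adjusted p = 0.0233), a call lost without unloaded array 4 (0.0612) and without acLDL array 1, 3 or 4 (0.0515 to 0.0659). Of 18 immediate early genes, the class that Atf3 and Ppp1r15a also belong to in many cells, 4 rose, 2 fell and 12 did not pass (median 0.05). Myc, Fos and Junb rose by 0.69, 0.60 and 0.48 and Jun fell by 0.47 on the log2 scale.

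The arrays carried RNA of macrophages. By their mean, all 8 macrophage markers lay above 6.12, the 95th percentile of olfactory receptor genes, which served as background. Of these 8, Fcgr1, Itgam, Adgre1 and Mertk rose by 0.71, 0.63, 0.59 and 0.33 on the log2 scale and Cd14 fell by 0.33. The log2 of their summed levels ran from 14.41 to 14.46 with acLDL and from 14.31 to 14.40 in unloaded cells, with no overlap. All 10 stress response genes lay above 6.12 on every array. In bulk RNA, fewer cells of a type and less RNA per cell cannot be told apart. Of the markers of other cells, 0 of 5 for B cells and 0 of 7 for neutrophils lay above 6.12, as did 1 of 6 for mast cells, 1 of 5 for eosinophils (Siglecf), 2 of 7 for T and NK cells (Cd3e and Il7r) and 6 of 9 for fibroblasts and mesothelial cells. The log2 of the summed levels ran from 12.02 to 12.17 with acLDL and from 12.16 to 12.46 in unloaded cells for the fibroblast and mesothelial list, with 0 genes higher and 2 lower. It ran from 11.66 to 11.75 with acLDL and from 12.28 to 12.31 in unloaded cells for the T and NK list, and from 8.38 to 8.51 with acLDL and from 8.70 to 8.81 in unloaded cells for the eosinophil list, with 1 gene lower in each. Both of these sums follow 1 gene. Il7r averaged 11.60 with acLDL and 12.22 in unloaded cells, while the means of the other 6 T and NK markers, none of which passed, lay between 4.06 and 6.47. Siglecf averaged 7.37 with acLDL and 7.97 in unloaded cells, and the other 4 eosinophil markers lay below 6.12 and did not pass. For mast cells the sum ran from 7.92 to 8.01 with acLDL and from 8.02 to 8.18 in unloaded cells, with 1 gene lower. The neutrophil sum ran from 7.95 to 8.04 with acLDL and from 8.04 to 8.21 in unloaded cells, with 2 genes lower. The B cell sum ran from 7.61 to 7.78 with acLDL and from 7.47 to 7.68 in unloaded cells, with 0 genes changed. The part of these cells in the values of the stress response genes was not tested.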

How the data were processed

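Per the labels' protocols, RNA of the 8 cultures went onto Affymetrix arrays after biotin labelling. The authors deposited log2 values from RMA (robust multi-array averaging), per the submitters' processing notes, which state no version or settings here. RMA draws differences of dim genes towards 0 and hides a change that all genes share. Of 35557 probe sets, 21789 had 1 gene symbol, 1621 had several and 12147 were not in the annotation used here. The single-symbol probe set with the highest mean represented each gene, leaving 19938 genes.

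Each array's group and replicate number was read from its description. Differences, acLDL minus unloaded, were tested two-sided in R 4.3.3 by limma 3.58.1 (lmFit and eBayes without a block), with Benjamini-Hochberg adjustment over all genes, a threshold of 0.05 and moderated 95% confidence intervals. The step was tested on simulated data. Replicates are described as independent, but nothing ties them to mice, so p-values measure the spread between these samples. The number of arrays, 4 a group, limits the precision.

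The members and lists were chosen with earlier results of these data known. Text names the 10 members, the eIF2 kinases, up to 4 changed genes with the largest difference of each other list and the 3 genes closest to Asns, 50 in all. Another 15 were chosen after their values were seen: Impact, Eif2b3, Gcn1, Ppp1r15b, Psph, Pck2, Eif4ebp1, Slc3a2, Slc7a11, Cebpg, Hspa5, Sesn1, Sesn3, Trib1 and Trib2, as were the marker genes named. Alternatives were testing every annotated probe set, averaging probe sets per gene, a replicate block, a filter on dim genes, repeated quantile normalization, median centring, cyclic loess, a trended robust prior, array weights, exact permutation and leaving out arrays. Centring on all deposited probe sets and the shared Phgdh probe set were added after seeing the data. The pairs of unloaded arrays left out follow no label and were picked from the values. Figures used matplotlib 3.10.9.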

Additional observations from a re-analysis of the deposited data

Results flagged for a closer look

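Within each group of 4 arrays, the highest or lowest array was checked for standing apart from the other 3 by more than Dixon's 95% criterion, for the 65 named genes. Of 130 groups 10 stood out, where chance gives about 5%, and 0 of them were among the 10 stress response genes. With acLDL, array 1 stood above the others in Atf6b (9.27, nearest other array 9.06), Slc7a5 (8.24, nearest 8.04) and Gars (10.07, nearest 9.93), and array 3 stood below them in Shmt2 (7.71, nearest 7.89). In unloaded cells, array 4 stood above the others in Slc38a2 (11.22, nearest 11.07), Cebpg (8.55, nearest 8.29) and Sesn3 (7.04, nearest 6.85), array 1 stood above them in Gclm (9.09, nearest 8.87) and Cox6b1 (9.99, nearest 9.77), and array 2 stood below them in Plau (8.89, nearest 9.15).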

How the results depend on the processing

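Asns, Sesn2, Psat1 and Trib3 passed under all 20 alternative fits, with log2 differences of 1.03 to 1.27, 0.54 to 0.65, 0.37 to 0.65 and 0.42 to 0.50. Atf3 passed in 13 of 20, Chac1 in 6, Ppp1r15a in 4, Atf4 in 1, and Ddit3 and Phgdh in 0. The count of changed members was 8 (5 higher, 3 lower) without unloaded arrays 2 and 3 and lay between 4 and 6 with single arrays left out. Over all 19938 genes the counts were 4669 without unloaded arrays 2 and 3 and from 3618 to 4590 with single arrays left out. Over all genes, the count at 1.5-fold was 405, and 624 when all annotated probe sets were tested, a larger set. Centring each array on all deposited probe sets, added after seeing the data, gave 2802 higher and 1390 lower genes in place of 2565 and 2085, so that 66.8% of calls were higher in place of 55.2%. It moved the median difference of all genes to 0.029. Ppp1r15a passed after repeated quantile normalization (-0.22, adjusted p = 0.0268) and cyclic loess (-0.22, 0.0269), and Chac1 after a filter on dim genes (0.24, 0.0404). The sign of Ddit3 turned between settings, from -0.04 to 0.06. The cause of these shifts was not tested.

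Whether equal replicate numbers pair the arrays is not settled. Deviations of same-numbered arrays correlated at 0.107, -0.163, 0.301 and 0.135, and weak correlations cannot exclude a shared source. The best-matching unloaded array had the same number for acLDL arrays 1 and 4 and another number for 2 and 3. The best-matching acLDL array had the same number for unloaded array 3 and another number for 1, 2 and 4. With a replicate block 4860 genes and 6 members changed, in place of 4650 and 5, Chac1 being added (adjusted p = 0.0166). The exact permutation test gave its smallest p, 0.0286, to the 5 members that passed. In the eIF2 list the count of changed genes ran up to 6, after repeated quantile normalization, in place of 3. Chac2 was lost with the block (adjusted p = 0.0563). Signal over background is the limit for dim genes: the calls of Chac2 and Ggt5 rest on group means below 6.12.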
